A study of Homo sapiens with 16 samples.

Results

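The genes of the subunits of RNA polymerases I, II and III were followed by their messenger RNA in U2OS, a cell line derived from a human sarcoma. Members were the protein-coding genes whose symbol is POLR1, POLR2 or POLR3 followed by a letter, without POLR2J2, POLR2J3 and POLR2M. This gave 30 genes of 60666 in the tables, of which 19897 are annotated as protein-coding. Of the 30 genes, 7 encode subunits of polymerase II only, 5 encode subunits that all 3 polymerases share, 2 encode subunits of polymerases I and III, 6 encode subunits of polymerase I only and 10 encode subunits of polymerase III only. All 30 passed the filter on low counts, and the lowest expected count of any member in any library used was 118.

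Total RNA was depleted of ribosomal RNA and sequenced from stable lines grown under puromycin, which carried a short hairpin RNA (sh) against PIP4K2A, one against PIP4K2B, both (shPIP4K2A/2B), or the empty plko.puro vector. PIP4K2A and PIP4K2B encode lipid kinases that phosphorylate phosphatidylinositol 5-phosphate, and the series asks how these kinases affect gene expression and splicing. Each line was irradiated without medium with UV-C (UV in the text) at 30 J/m2 and collected 6 h later, or was left untreated, with 2 libraries in each of the 8 groups. The labels name no hairpin without a target, so that line, hairpin and loss of the kinase cannot be told apart, and whether replicates are separate cultures is not stated, so that p-values measure the spread between these libraries, which may be technical.

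Untreated empty-vector replicate 1 was set aside. It held 1.28 M expected counts, with 14.6% from mitochondrial genes, and the other 15 libraries held 28.0 to 39.9 M. The untreated empty-vector group is therefore 1 library, whose spread is taken to be that of the other groups. PIP4K2A stood at 7.48 to 22.9 counts per 1e6 counts (CPM) in libraries with its hairpin and at 43.2 to 62.9 CPM in the other libraries used, and PIP4K2B at 11.4 to 26.6 CPM against 65.1 to 107 CPM. Among markers of the mesenchymal and osteoblast lineage, VIM, COL1A1, SPARC and FN1 lay between 608 and 3838 normalised CPM and RUNX2 between 16.3 and 53.2, whereas COL1A2 was at or near 0, with a highest value of 0.670. The 6 summed to 6849 to 8815 after UV and to 4964 to 7694 untreated. The 5 epithelial markers summed to 25.1 to 49.6 after UV and 24.4 to 38.7 untreated. CLDN4 was the highest of these, at 11.5 to 43.2, a range that overlaps that of RUNX2. EPCAM, CDH1 and KRT5 lay between 0.786 and 6.68, and KRT19 at 0.116 or less. The 5 blood cell markers summed to 0.938 to 1.53 after UV and 0.728 to 1.298 untreated. PTPRC reached 1.13, CD3E was at 0.0356 or less and HBB at 0.112 or less in every library. The mean fragment length ran from 199.6 to 253.3 bp. The shPIP4K2A UV libraries differed from each other, with a fragment length of 253 bp in replicate 1 and 217 bp in replicate 2.

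RNA polymerase I transcribes the ribosomal RNA precursor in the nucleolus, polymerase II transcribes messenger RNA precursors, and polymerase III transcribes transfer RNA and other short RNAs. Each enzyme has a catalytic core around its largest pair of subunits, an assembly platform of paralogous or shared small subunits, and a stalk at the exit of the RNA. UV lesions in the template strand stall elongating polymerase II, which is the signal for transcription-coupled repair, and the largest subunit can then be ubiquitylated and degraded, a step on the protein that RNA levels do not show.

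Levels between genes were compared as normalised CPM per kilobase of effective length, where normalised CPM are CPM of a library size scaled by the trimmed mean of M values (TMM). In untreated libraries the median level was highest for POLR2I, at 94.3 normalised CPM per kb (79.8 to 105), and lowest for POLR3GL, at 4.35 (3.86 to 5.16). Another gene overlaps 64.6% of the span of POLR2I and 92.7% of that of POLR3GL, so that both levels are uncertain. POLR2E, POLR2C, POLR2L and POLR2B followed POLR2I between 70.2 and 71.2, and their ranges overlapped each other (POLR2L 51.4 to 87.1, POLR2B 63.8 to 77.0), so that their order was not separated. With the weighted length in place of the effective length, 8 of the 10 highest genes stayed among the 10 highest and POLR2B came first. The lower ranks were held mostly by polymerase III genes: POLR3B stood at 6.09, POLR3F at 7.14, POLR3G at 8.87, POLR3K at 9.26 and POLR3A at 10.4 normalised CPM per kb. Among the largest subunits, POLR2A had 41.9, POLR1A 35.7 and POLR3A 10.4 normalised CPM per kb. All 30 members together took 0.177 to 0.213% of the counts of a library.

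After UV, most genes of small polymerase II subunits and of shared subunits were higher on the TMM scale, though only POLR2I stayed above 0 under scaling to ribosomal protein genes. POLR2A and POLR1A, the largest subunits of polymerases II and I, did not pass the test, and POLR3B and POLR3E of polymerase III were lower. In the contrast averaged over the 4 lines, 21 of 30 members passed edgeR's quasi-likelihood test with Benjamini-Hochberg adjustment over all 22597 genes, where 57.6% of all genes passed; 16 were higher after UV, against 29.9% of all genes, and 5 were lower, against 27.7%. The median log2 fold change of the members was 0.18 and that of all genes 0.02. Scaling to 86 cytosolic ribosomal protein genes put the median of all genes at -0.80 and called 25 members, all lower, where 82.4% of all genes were called, 81.2% lower and 1.19% higher, so that the members' share lies near that of all genes. POLR2I had 0.05 under this scaling. On the TMM scale 23 of the 30 members lay above the median of all genes. A change of scaling shifts all genes by nearly the same amount. Distances from that median, which differed by at most 0.013, therefore had to stay alike and do not test the scaling. In bulk RNA, fewer cells of a kind and less RNA per cell cannot be told apart.

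**Figure D1:**
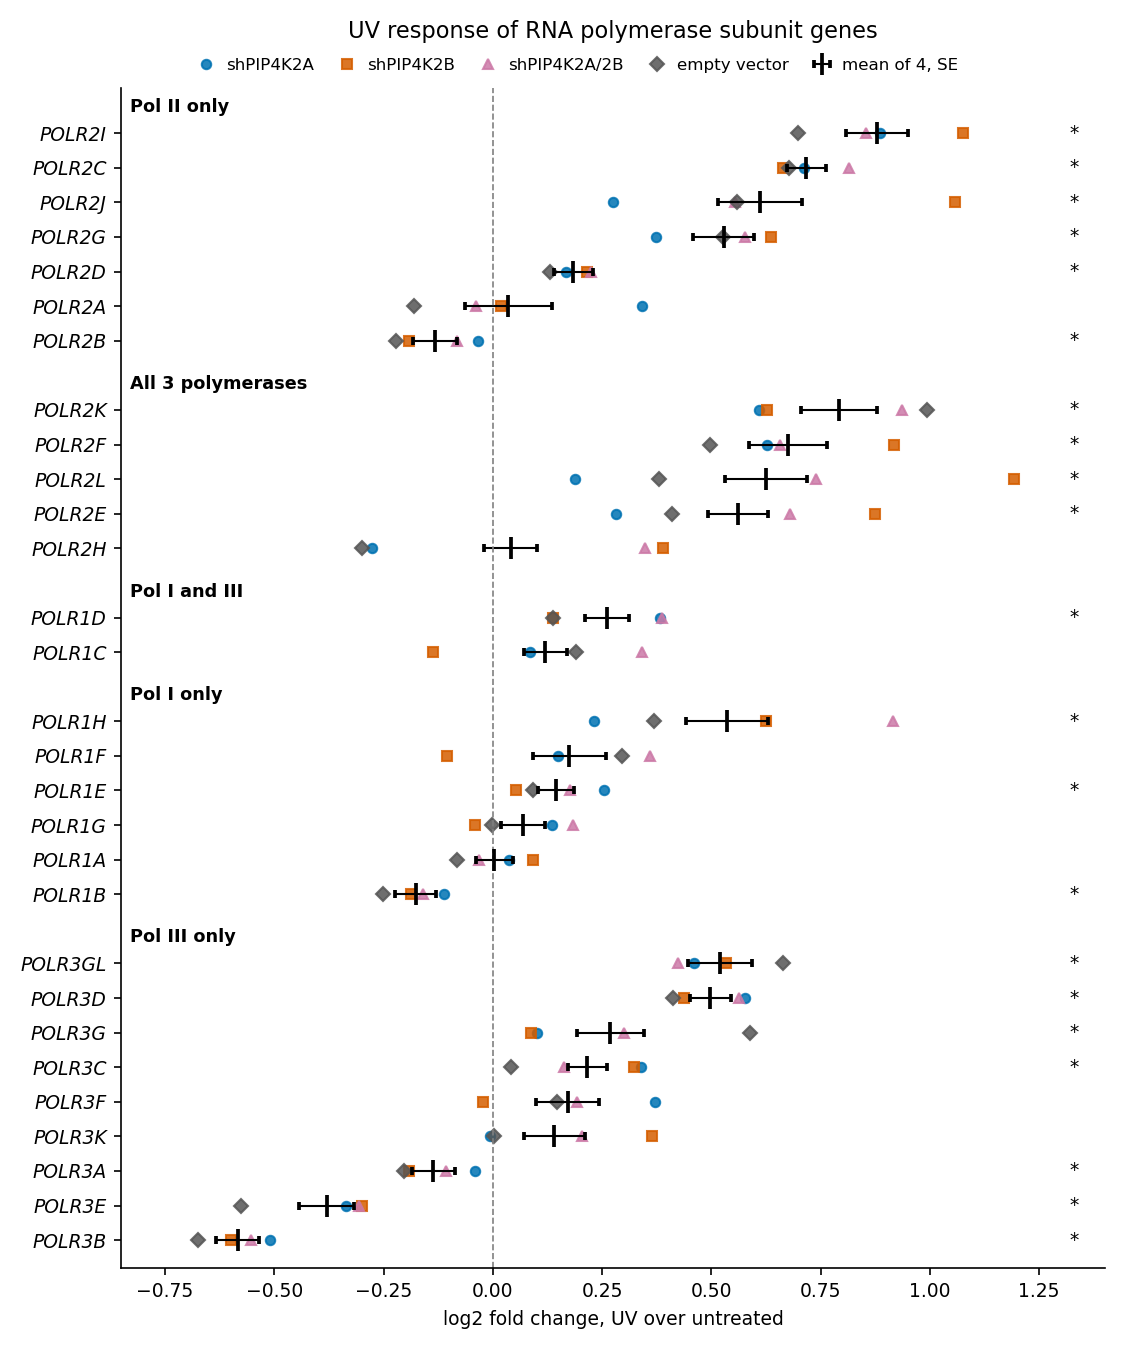
Log2 fold change (x axis, UV over untreated, TMM scale) of each gene reported (rows, grouped by the polymerases that hold the subunit); coloured points are the 4 lines, the black tick and bar are the mean of the 4 and its standard error, and an asterisk marks adjusted p under 0.05 for the mean. POLR2I (0.88), POLR2K (0.79) and POLR2C (0.72) stand farthest to the right and POLR3B (-0.58) farthest to the left; under ribosomal protein gene scaling POLR2I alone stays above 0.

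Line by line, 12 members were called in shPIP4K2A cells (10 higher, 2 lower), where 30.6% of all genes passed, 16.6% higher and 14% lower. In shPIP4K2B cells 15 were called (14 higher, 1 lower), where 32.9% passed, 17.5% higher and 15.4% lower. In shPIP4K2A/2B cells 15 were called (14 higher, 1 lower), where 35.2% passed, 19.1% higher and 16.1% lower. In empty-vector cells 9 were called (7 higher, 2 lower), where 18.5% passed, 8.67% higher and 9.82% lower. Under ribosomal protein gene scaling the calls were 22, 20, 20 and 17 in the same order of lines, all lower, where 63.7%, 66.8%, 64.9% and 48.2% of all genes were lower. POLR2C, POLR2G, POLR2I, POLR2K, POLR3D and POLR3GL were higher and POLR3B was lower in each of the 4 lines past the test. In POLR1A, POLR1B, POLR1F, POLR1G, POLR2A, POLR2B, POLR2D, POLR3A and POLR3F no line reached the threshold. Values of all 8 UV libraries lay above all 7 untreated libraries in 6 members, against 7.56% of all genes, and below them in 1 member, POLR3B, against 9.17%. The count in shPIP4K2A cells was 6 without untreated shPIP4K2A replicate 2, that in shPIP4K2A/2B cells 9 without untreated shPIP4K2A/2B replicate 1, and that in empty-vector cells 4 without UV empty-vector replicate 2.

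By role, on the TMM scale, 5 of the 7 genes of polymerase II only rose and 1 fell, with a median log2 fold change of 0.53. Of the 5 shared by all 3 polymerases, 4 rose and none fell, with a median of 0.63. Of the 10 of polymerase III only, 4 rose and 3 fell (median 0.16). Of the 6 of polymerase I only, 2 rose and 1 fell (median 0.11), and of the 2 shared by polymerases I and III, POLR1D rose. Of all genes tested, 29.9% rose and 27.7% fell, with a median of 0.02. Of the protein-coding genes tested, 37.2% rose and 25.9% fell, with a median of 0.09. The counts for polymerase III only and for polymerase I only lay not far from these shares. Under ribosomal protein gene scaling every one of the members' rises but that of POLR2I had a value below 0.

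Among the genes of polymerase II only, POLR2I (chromosome 19, 36113710 to 36115346, minus strand, GRCh38), whose subunit lies in the jaw of the enzyme, had the largest change. It stood at 40.1, 46.3 and 58.9 normalised CPM (lowest, median and highest of 8 libraries) after UV and at 22.7, 26.4 and 27.8 (7 libraries) untreated. The 2 sets did not overlap, and the log2 fold change was 0.88 (SE 0.07, adjusted p = 4.61e-07). Of its span, 64.6% is overlapped by TBCB on the opposite strand, and as the strand setting of the counting is not known, reads of both genes may be mixed.

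POLR2C, whose subunit forms with that of POLR2J the dimer on which the core assembles, had 118, 138 and 155 normalised CPM after UV and 74.1, 86.0 and 96.4 untreated (lowest, median, highest). Its sets were also apart, with a log2 fold change of 0.72 (SE 0.04, adjusted p = 4.54e-08) and only 0.67 to 0.81 over the 4 lines. POLR2J had 45.1, 63.3 and 124 after UV and 37.2, 44.5 and 63.8 untreated, with a change of 0.61 (SE 0.10, adjusted p = 0.000132). The highest values of POLR2J came from the shPIP4K2B libraries, and its sets overlapped. POLR2J has near-identical copies: POLR2J3 stood at 22.6 to 47.2 normalised CPM under one of its identifiers and at 18.1 to 44.0 under the other, so how reads were split between the copies is uncertain.

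The stalk genes POLR2G and POLR2D differed in size of change. POLR2G had 37.0, 47.1 and 55.9 normalised CPM after UV and 27.6, 33.3 and 36.3 untreated, a change of 0.53 (SE 0.07, adjusted p = 3.14e-05). POLR2D had 83.1, 114 and 131 after UV and 81.2, 99.3 and 118 untreated, a change of 0.18 (SE 0.05, adjusted p = 0.00354). Both rose, POLR2G without overlap and POLR2D with wide overlap. POLR2B, the second largest subunit, had 186, 197 and 236 after UV and 199, 222 and 237 untreated, and its fall by 0.13 (SE 0.05, adjusted p = 0.0381) held in 5 of 14 fits that left out 1 library.

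POLR2A, which encodes the largest subunit with the carboxy-terminal repeats that carry regulatory phosphorylation, had 191, 268 and 362 normalised CPM after UV and 216, 253 and 298 untreated. The sets overlapped, and the change was 0.03 (SE 0.10, adjusted p = 0.788). The highest and 1 of the lowest values came from the same group, with 361.6 and 200.5 in shPIP4K2A UV replicates 1 and 2. These are the libraries that also differed in fragment length, and the part of fragment length in this was not tested beyond the fit that holds it as a term, in which POLR2A stayed uncalled.

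For a view of the start sites of members that moved in each direction, promoter windows from 250 bases before to 50 bases after a gene's start were taken from RefSeq (GRCh38.p14), which held 28 windows for 22 of the 30 members. POLR2I and POLR2K, which had the largest rises of all members, were not among the 22. The windows below are of POLR2C and POLR2F, the 2 members with the largest rises among those matched, and of POLR3B and POLR3E, the 2 with the largest falls; all are on the plus strand, written 5′ to 3′, and POLR3B has 2 annotated starts (an overlapping second window of POLR2F is not shown). Capitals mark letters of an ETS motif, which is CCGGAAG, of the GC box, which is GGGCGG, of the NRF1 motif, in part GCATGCG, of the CCAAT box, and of the E-box, which is CACGTG, on either strand; matches that overlap are merged.
POLR2C, chr16:57462429-57462728: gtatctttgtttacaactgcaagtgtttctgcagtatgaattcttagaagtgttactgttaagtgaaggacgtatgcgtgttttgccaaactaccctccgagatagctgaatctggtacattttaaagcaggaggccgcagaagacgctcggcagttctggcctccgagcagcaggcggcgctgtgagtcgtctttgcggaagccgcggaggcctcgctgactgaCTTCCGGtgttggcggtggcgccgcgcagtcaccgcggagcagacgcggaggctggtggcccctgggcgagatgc
POLR2F, chr22:37953449-37953748: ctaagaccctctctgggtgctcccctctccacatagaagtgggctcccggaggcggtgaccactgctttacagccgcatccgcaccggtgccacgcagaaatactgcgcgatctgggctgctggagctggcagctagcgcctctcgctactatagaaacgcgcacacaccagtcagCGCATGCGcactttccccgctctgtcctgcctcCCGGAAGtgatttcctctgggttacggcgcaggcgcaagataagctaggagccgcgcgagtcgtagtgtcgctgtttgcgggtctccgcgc
POLR3B, chr12:106357498-106357797: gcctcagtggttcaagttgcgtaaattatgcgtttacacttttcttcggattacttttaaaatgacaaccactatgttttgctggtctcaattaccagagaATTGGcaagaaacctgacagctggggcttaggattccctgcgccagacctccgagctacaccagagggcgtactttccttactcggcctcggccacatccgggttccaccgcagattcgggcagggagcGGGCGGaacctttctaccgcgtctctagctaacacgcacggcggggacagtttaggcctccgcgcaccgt
POLR3B, chr12:106357860-106358159: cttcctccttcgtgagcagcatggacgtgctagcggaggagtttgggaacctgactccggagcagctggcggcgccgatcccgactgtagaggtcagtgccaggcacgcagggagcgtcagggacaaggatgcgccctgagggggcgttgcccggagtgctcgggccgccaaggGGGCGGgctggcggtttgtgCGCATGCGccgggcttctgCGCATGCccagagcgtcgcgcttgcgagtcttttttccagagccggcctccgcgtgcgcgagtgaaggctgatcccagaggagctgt
POLR3E, chr16:22297159-22297458: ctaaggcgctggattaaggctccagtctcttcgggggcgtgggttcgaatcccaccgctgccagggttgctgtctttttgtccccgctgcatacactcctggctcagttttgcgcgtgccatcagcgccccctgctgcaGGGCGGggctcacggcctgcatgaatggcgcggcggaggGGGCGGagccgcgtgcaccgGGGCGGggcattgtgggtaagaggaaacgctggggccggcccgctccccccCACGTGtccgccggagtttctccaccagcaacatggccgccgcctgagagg
The windows of POLR2C and POLR2F each hold 1 ETS motif and no GC box, and those of POLR3B and POLR3E each hold at least 1 GC box and no ETS motif. Over all member windows, 32.1% hold CCGGAAG against 10.3% of all 35116 windows of the table, 67.9% hold GGGCGG against 45.0%, 14.3% hold GCATGCG against 3.91%, 14.3% hold CACGTG against 7.26%, 21.4% hold CCAAT against 34.6% and 10.7% hold ATGGCGG, part of the YY1 motif, against 5.55%. TATAAA, the TATA box, was found in 0 member windows against 11.5% of all. CCGGAAG also stood in windows of POLR1B, which fell, and of POLR3A. GGGCGG also stood in windows of POLR1D, POLR2E, POLR2L and POLR3GL, which rose. Neither motif thus sorted members by direction. The median GC content was 61.8% for the members and 58.7% for all windows.

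The 5 shared subunits sit in the core of all 3 enzymes. POLR2K, a small zinc-binding subunit, had 49.6, 70.4 and 76.3 normalised CPM after UV and 35.3, 37.5 and 45.4 untreated, without overlap, and rose by 0.79 (SE 0.09, adjusted p = 6.7e-06). POLR2F had 31.5, 45.9 and 52.5 after UV and 23.8, 25.8 and 32.2 untreated and rose by 0.68 (SE 0.09, adjusted p = 3.25e-05). The only overlap in POLR2F came from shPIP4K2A UV replicate 2, at 31.5, beside 46.1 in replicate 1. POLR2L had 44.1, 76.3 and 119 after UV and 32.7, 46.5 and 57.3 untreated, and rose by 0.63 (SE 0.09, adjusted p = 8.94e-05), although 47.7% of its span is shared with CD151 on the other strand. POLR2E had 81.4, 124 and 151 after UV and 62.7, 78.7 and 94.0 untreated, and rose by 0.56 (SE 0.07, adjusted p = 1.46e-05). In POLR2L and POLR2E the low UV values were those of shPIP4K2A cells.

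POLR2H was the exception among the shared subunits. It had 16.7, 23.0 and 33.6 normalised CPM after UV and 19.6, 21.8 and 26.4 untreated, with a mean change of 0.04 (SE 0.06, adjusted p = 0.586). The mean hid opposite values: POLR2H rose by 0.39 (adjusted p = 0.0171) in shPIP4K2B cells and by 0.35 (adjusted p = 0.0292) in shPIP4K2A/2B cells, and the change was -0.28 (adjusted p = 0.0821) in shPIP4K2A cells and -0.30 (adjusted p = 0.156) in empty-vector cells. The difference of UV responses from empty-vector cells was 0.69 (SE 0.18, unadjusted p = 0.00198, adjusted p = 0.624 by edgeR) for shPIP4K2B and 0.65 (SE 0.18, unadjusted p = 0.00313, adjusted p = 0.898) for shPIP4K2A/2B. Neither passed over all genes, and no difference of response is called.

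**Figure D2:**
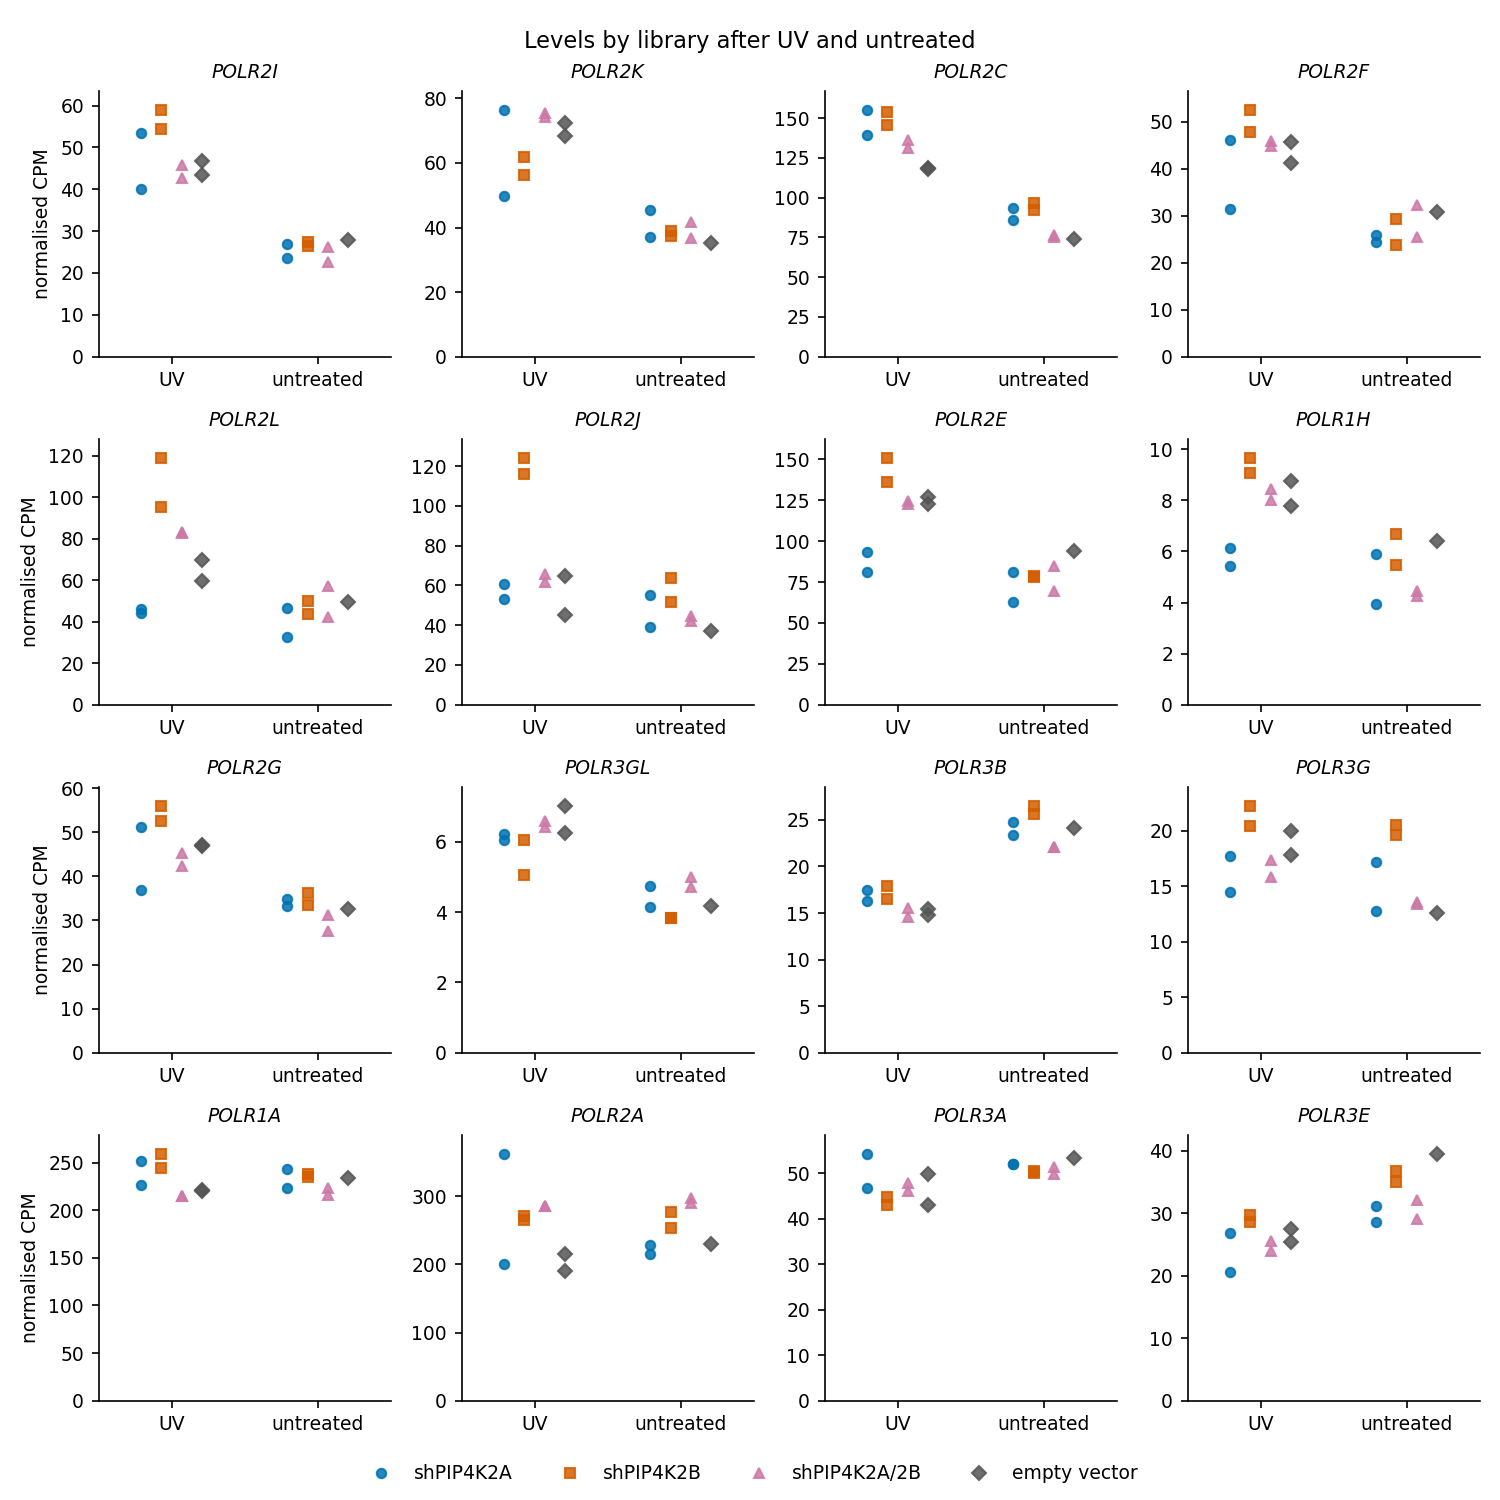
Normalised CPM (y axis, from 0) of 16 members in each library, with UV left of untreated in each panel; the marker shows the line, and each point is 1 library. In POLR2I, POLR2K, POLR2C, POLR2G and POLR3GL the 8 UV libraries lie above the 7 untreated ones on this TMM scale, and in POLR3B they lie below; POLR1A, POLR2A and POLR3A overlap.

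Among genes of polymerase I, POLR1A, the largest subunit, had 215, 224 and 259 normalised CPM after UV and 217, 234 and 243 untreated, a change of 0.00 (SE 0.04, adjusted p = 0.955) that lay between -0.08 and 0.09 in the 4 lines. POLR1B, its catalytic partner, had 59.7, 67.7 and 83.1 after UV and 70.7, 81.2 and 89.4 untreated and fell by 0.18 (SE 0.05, adjusted p = 0.00552) on average, below untreated in 4 of 4 lines though called in none alone. POLR1H, the homologue of a yeast subunit needed for cleavage of the transcript in a backtracked enzyme, had 5.42, 8.24 and 9.65 after UV and 3.96, 5.47 and 6.69 untreated and rose by 0.54 (SE 0.09, adjusted p = 0.000299).

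POLR1H overlaps ZNRD1ASP on the other strand over 45.6% of its span. POLR1E and POLR1G encode a dimer that resembles general factors of polymerase II, and POLR1F a stalk subunit. POLR1E rose by 0.14 (SE 0.04, adjusted p = 0.00865), whereas POLR1G (0.07, adjusted p = 0.264) and POLR1F (0.18, adjusted p = 0.0899) did not pass. POLR1G shares 75.3% of its span with ERCC1 on the other strand. POLR1C and POLR1D, which form the assembly dimer of polymerases I and III and are mutated in Treacher Collins syndrome, changed by 0.12 (adjusted p = 0.0547, not passed) and 0.26 (SE 0.05, adjusted p = 0.000666). POLR1C overlaps XPO5 on the other strand over 76.0% of its span.

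Polymerase III genes went both ways. POLR3B, the second largest and catalytic subunit (chromosome 12, 106357658 to 106510198, plus strand), had 14.6, 15.9 and 17.9 normalised CPM after UV and 22.0, 24.1 and 26.5 untreated, and fell by 0.58 (SE 0.05, adjusted p = 6.8e-07), with values between -0.68 and -0.51 in the 4 lines. POLR3E had 20.6, 26.2 and 29.7 after UV and 28.7, 32.1 and 39.5 untreated and fell by 0.38 (SE 0.06, adjusted p = 0.000196). POLR3B showed no overlap and POLR3E a narrow one. POLR3D, whose product pairs with that of POLR3E in a dimer, moved the other way, with 42.8, 46.1 and 51.5 after UV and 29.1, 31.7 and 38.5 untreated, a rise of 0.50 (SE 0.05, adjusted p = 1.64e-06) on the TMM scale. The largest subunit POLR3A had 43.1, 46.5 and 54.2 after UV and 49.9, 51.5 and 53.4 untreated, and its fall by 0.14 (SE 0.05, adjusted p = 0.0328) held in 9 of 14 fits that left out 1 library.

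POLR3G and POLR3GL are paralogs that occupy the same place in alternative forms of the enzyme, POLR3G mostly in stem and tumour cells. Per kilobase, POLR3G had a median of 11.2 normalised CPM after UV and 8.87 untreated, and POLR3GL one of 6.69 after UV and 4.35 untreated, so POLR3G was the higher of the pair in both conditions. In normalised CPM, POLR3GL had 5.07, 6.24 and 7.02 after UV and 3.83, 4.18 and 4.99 untreated, without overlap, and rose by 0.52 (SE 0.07, adjusted p = 5.05e-05). POLR3G had 14.4, 17.7 and 22.2 after UV and 12.6, 13.5 and 20.5 untreated and rose by 0.27 (SE 0.08, adjusted p = 0.00875), alone past the test in empty-vector cells (0.59, adjusted p = 0.0388), where the untreated group is 1 library. A protein-coding gene on the same strand, AC243547.3, covers 92.7% of the POLR3GL span, so its reads may be split.

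POLR3C, which sits with POLR3F and POLR3G in the initiation subcomplex, rose by 0.22 (SE 0.05, adjusted p = 0.00121). POLR3F (0.17, adjusted p = 0.0582) and the cleavage subunit gene POLR3K (0.14, adjusted p = 0.103) did not pass. Among the 6 genes of catalytic pairs, none rose, against 29.9% of all genes. POLR1B, POLR2B, POLR3A and POLR3B were lower, against 27.7% of all genes, and POLR1A and POLR2A did not pass. Ribosomal protein gene scaling put POLR1A at -0.82 and POLR2A at -0.80, near the all-gene median of -0.80 under that scaling.

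Size of the gene went with the response across members. Pearson's r between log10 gene span and the averaged log2 fold change was -0.63 and Spearman's rho -0.58 over 30 genes, a description across genes that share libraries and are not independent replicates. With the weighted transcript length in place of the span, r was -0.71, without the 2 longest genes -0.60 and with RefSeq spans -0.67. Members under 10 kb had a median of 0.55, with 9 of 12 higher and none lower, against a median of 0.30 with 48.8% higher and 18.8% lower over all 3066 protein-coding genes of that size. From 10 to 50 kb the median was 0.17 for 11 members, against 0.12 for 6432 genes, and over 50 kb it was 0.00 for 7 members, against 0.01 for 5816 genes. The gradient is thus present in all protein-coding genes tested, and only the position of members within it is described here.

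Some members stood away from the gradient. POLR2F spans 89.3 kb in GENCODE release 29 and rose by 0.68, and POLR1D spans 123.5 kb and rose by 0.26, but the mean weighted transcript lengths of these genes were 694 and 920 bases, and the POLR1D span is 46669 bases in RefSeq. POLR1G (4.56 kb), POLR2H (6.88 kb) and POLR3K (7.22 kb) are short and did not pass. In the separate lines, r was -0.44 in shPIP4K2A, -0.65 in shPIP4K2B, -0.66 in shPIP4K2A/2B and -0.54 in empty-vector cells, from separate libraries scaled in 1 fit.

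**Figure D3:**
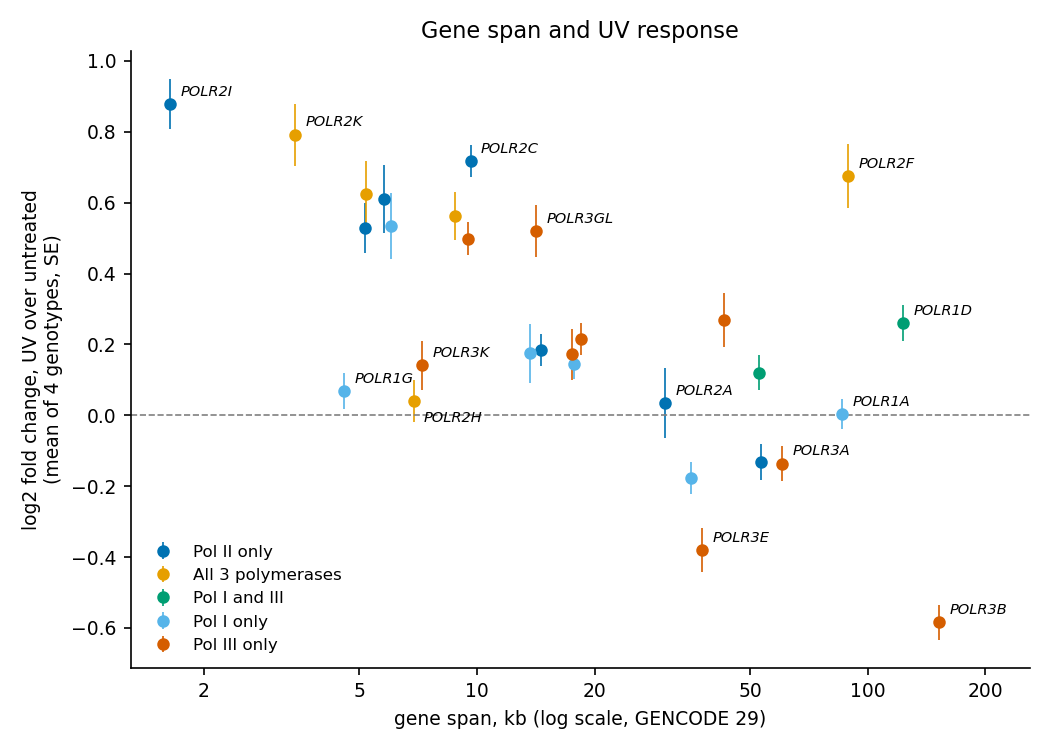
Averaged log2 fold change after UV (y axis, TMM scale, with its standard error) against gene span in kb (x axis, log scale) for the members reported, coloured by role. Members under 10 kb have a median of 0.55 and those over 50 kb a median of 0.00, with POLR2F (89.3 kb) above the rest of the long genes.

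The knockdown lines were next set against empty vector in untreated cells, where the reference is the 1 library left in its group. No member was called in shPIP4K2A cells (7.84% of all genes passed the adjusted threshold in edgeR) or in shPIP4K2A/2B cells (6.2%). DESeq2 also called 0 in both. At an unadjusted p under 0.05 there were 4 members in each, and the share of all genes at that threshold was not counted. In shPIP4K2B cells 3 members were higher, where 10.2% of all genes passed and 5.26% were higher. The share of members that passed thus lay near that of all genes. POLR2D had 117.9 and 106.7 normalised CPM in shPIP4K2B cells against 81.2 in empty-vector cells, a log2 fold change of 0.47 (SE 0.11, adjusted p = 0.0139). POLR3G had 20.5 and 19.6 against 12.6, a change of 0.67 (SE 0.18, adjusted p = 0.0321), and POLR2C 96.4 and 92.5 against 74.1, a change of 0.35 (SE 0.10, adjusted p = 0.0454). In all 3 genes both knockdown libraries exceeded the single empty-vector library, which adds no support, as the genes were picked by the test on these values. The count in shPIP4K2B cells was 0 without untreated shPIP4K2B replicate 1, 1 without untreated shPIP4K2B replicate 2, UV shPIP4K2B replicate 2 or either UV shPIP4K2A/2B library, 6 without UV shPIP4K2A replicate 1 and 5 without UV shPIP4K2A replicate 2.

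After UV, with 2 libraries in every group, more members differed from empty vector, and so did more of all genes. In shPIP4K2A cells 5 were higher and 1 was lower, where 20.3% of all genes passed, 11.3% higher and 9.01% lower. In shPIP4K2B cells 9 were higher, where 19.0% passed and 10.7% were higher, and in shPIP4K2A/2B cells 3 were higher, where 15.4% passed and 8.5% were higher. The share of members that passed lay near that of all genes in shPIP4K2A cells and below it in shPIP4K2A/2B cells. Only in shPIP4K2B cells did it lie above. POLR2D was higher in all 3 knockdowns, with 109.5 and 114.4 normalised CPM in shPIP4K2A, 129.6 and 131.1 in shPIP4K2B and 116.3 and 113.9 in shPIP4K2A/2B cells, against 94.7 and 83.1 in empty-vector cells. Its log2 fold changes were 0.33 (SE 0.08, adjusted p = 0.0152), 0.55 (SE 0.08, adjusted p = 0.00067) and 0.37 (SE 0.08, adjusted p = 0.0106) in that order of lines; the 3 comparisons share the empty-vector libraries and are not independent.

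In shPIP4K2B cells after UV, POLR2H, POLR2L and POLR2J stood highest. POLR2H had 33.1 and 33.6 normalised CPM there and 17.5 and 17.4 in empty-vector cells, a change of 0.93 (SE 0.11, adjusted p = 0.000116). POLR2L had 118.9 and 95.3 against 59.8 and 69.8, a change of 0.73 (SE 0.17, adjusted p = 0.011), and POLR2J 124.0 and 116.0 against 45.1 and 64.8, a change of 1.13 (SE 0.18, adjusted p = 0.000814). In each of the 3 genes the shPIP4K2B libraries lay above every other UV library. POLR3K had 18.4 and 16.5 against 11.95 and 11.75, a change of 0.56 (SE 0.13, adjusted p = 0.00966), and POLR2C 153.9 and 145.6 against 119.0 and 118.2, a change of 0.34 (SE 0.08, adjusted p = 0.0115). POLR1B, POLR1G and POLR3C were called too, with changes of 0.31 to 0.36.

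In shPIP4K2A cells after UV, POLR2E was the member that was lower, with 93.4 and 81.4 normalised CPM against 122.5 and 127.2 in empty-vector cells, a change of -0.52 (SE 0.13, adjusted p = 0.0124). POLR2C had 155.0 and 139.2 against 119.0 and 118.2, a change of 0.31 (SE 0.08, adjusted p = 0.0167), and POLR1B 69.7 and 83.1 against 62.4 and 59.7, a change of 0.32 (SE 0.09, adjusted p = 0.0206). POLR3C had 55.9 and 50.9 against 44.1 and 42.8, a change of 0.30 (SE 0.08, adjusted p = 0.0264), and POLR1D 40.5 and 36.8 against 31.3 and 31.8, a change of 0.29 (SE 0.09, adjusted p = 0.0445). All 5 showed no overlap between the 2 groups. As they were picked by the test on these same values, this adds no support. In shPIP4K2A/2B cells POLR2H had 26.8 and 26.0 against 17.5 and 17.4, a change of 0.60 (SE 0.11, adjusted p = 0.00365), and POLR1D 42.1 and 39.6 against 31.3 and 31.8, a change of 0.37 (SE 0.09, adjusted p = 0.0182).

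These counts moved with single libraries. The shares of all genes called in the same fits are not set beside them, so the moves are not read as particular to the members. For shPIP4K2A after UV the count was 2 without empty-vector UV replicate 1, 0 without empty-vector UV replicate 2 and 12 without UV shPIP4K2A replicate 2. For shPIP4K2B it was 3 without empty-vector UV replicate 1 or UV shPIP4K2B replicate 1, 4 without empty-vector UV replicate 2 and 14 without either UV shPIP4K2A library. For shPIP4K2A/2B it was 1 without either library of its own or empty-vector UV replicate 2, 6 without UV shPIP4K2A replicate 1 and 5 without UV shPIP4K2A replicate 2. POLR2H, POLR2J and POLR2D stayed called in shPIP4K2B cells in every fit run that used the 15 libraries or fewer, whereas POLR2L and POLR3K did not.

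Whether the response to UV itself differed from that of empty-vector cells was tested by the difference of the 2 contrasts. edgeR called 0 members for each of the 3 knockdowns, where 0.00885% of all genes passed for shPIP4K2A, 0.0% for shPIP4K2B and 0.00885% for shPIP4K2A/2B. DESeq2 called 0 for each. At an unadjusted p under 0.05 in edgeR there were 1, 5 and 1 members in that order. The share of all genes at that unadjusted threshold was not counted, so these numbers are not read as a result. POLR2H had the differences given above, and POLR2L in shPIP4K2B cells one of 0.81 (SE 0.27, adjusted p = 0.672). A higher level after UV in a knockdown is thus not shown to be a different response.

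The 3 knockdown lines were also compared with each other, which leaves the empty-vector libraries out. Untreated, 4 members differed, where 14.2% of all genes passed edgeR's test on 2 degrees of freedom. The members' share thus lay near that of all genes. By that test the 4 were POLR3D (adjusted p = 0.0303), POLR3G (adjusted p = 0.0325), POLR3K (adjusted p = 0.0363) and POLR2C (adjusted p = 0.0424). POLR3D had 30.4 and 31.7 normalised CPM in shPIP4K2A, 38.5 and 36.2 in shPIP4K2B and 29.1 and 29.1 in shPIP4K2A/2B cells. POLR3K had 9.53 and 10.7, 13.5 and 13.6, and 9.60 and 9.62 in these lines. In POLR3D, POLR3G and POLR3K shPIP4K2B was the highest line, and in POLR2C shPIP4K2A/2B was the lowest. This count fell to 0 without any 1 of the 4 shPIP4K2B or of the 4 shPIP4K2A/2B libraries, was 1 without empty-vector UV replicate 1 and 2 without replicate 2, and was 7 without either UV shPIP4K2A library.

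After UV, 7 members differed among the knockdown lines, where 28.4% of all genes passed. The members' share thus lay below that of all genes. POLR2H (adjusted p = 0.000509), POLR2L (adjusted p = 0.000773), POLR2J (adjusted p = 0.00115) and POLR3K (adjusted p = 0.00131) led, followed by POLR2E (adjusted p = 0.00335), POLR1H (adjusted p = 0.0222) and POLR1C (adjusted p = 0.0411). POLR2L had 44.13 and 46.02 normalised CPM in shPIP4K2A, 118.9 and 95.3 in shPIP4K2B and 83.3 and 82.7 in shPIP4K2A/2B cells. POLR2H had 16.70 and 20.03, 33.1 and 33.6, and 26.8 and 26.0, and POLR2E 93.4 and 81.4, 150.8 and 136.0, and 122.7 and 124.7 in these lines. In these 3 genes shPIP4K2B was highest and shPIP4K2A lowest, without overlap, and POLR2J and POLR1H had the same order. In POLR3K the shPIP4K2A and shPIP4K2A/2B libraries overlapped. POLR1C was lowest in shPIP4K2B cells (32.5 and 30.3), beside 33.6 and 35.9 in shPIP4K2A and 39.7 and 39.8 in shPIP4K2A/2B cells. Without UV shPIP4K2A replicate 1, and likewise without replicate 2, 18 members were called. The share of all genes called in these fits is not set beside this count, which is not read as a result about the members.

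The UV responses of the knockdown lines were set against each other after the values had been seen. No member passed in the 3 pairs of lines, where 0.0%, 0.0133% and 0.0% of all genes passed for shPIP4K2B minus shPIP4K2A, shPIP4K2A/2B minus shPIP4K2A and shPIP4K2A/2B minus shPIP4K2B. DESeq2 called 0 in each. At an unadjusted p under 0.05 in edgeR there were 4, 4 and 1 members, again without a share of all genes at that threshold. For shPIP4K2B minus shPIP4K2A the difference was 1.00 for POLR2L (SE 0.25, adjusted p = 0.479) and 0.67 for POLR2H (SE 0.16, adjusted p = 0.479). Without UV shPIP4K2A replicate 2, 4 members were called for this pair, 3 for shPIP4K2A/2B minus shPIP4K2A and 2 for shPIP4K2A minus empty vector. The share of all genes called in that fit is not set beside these counts, which are not read as a result.

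**Figure D4:**
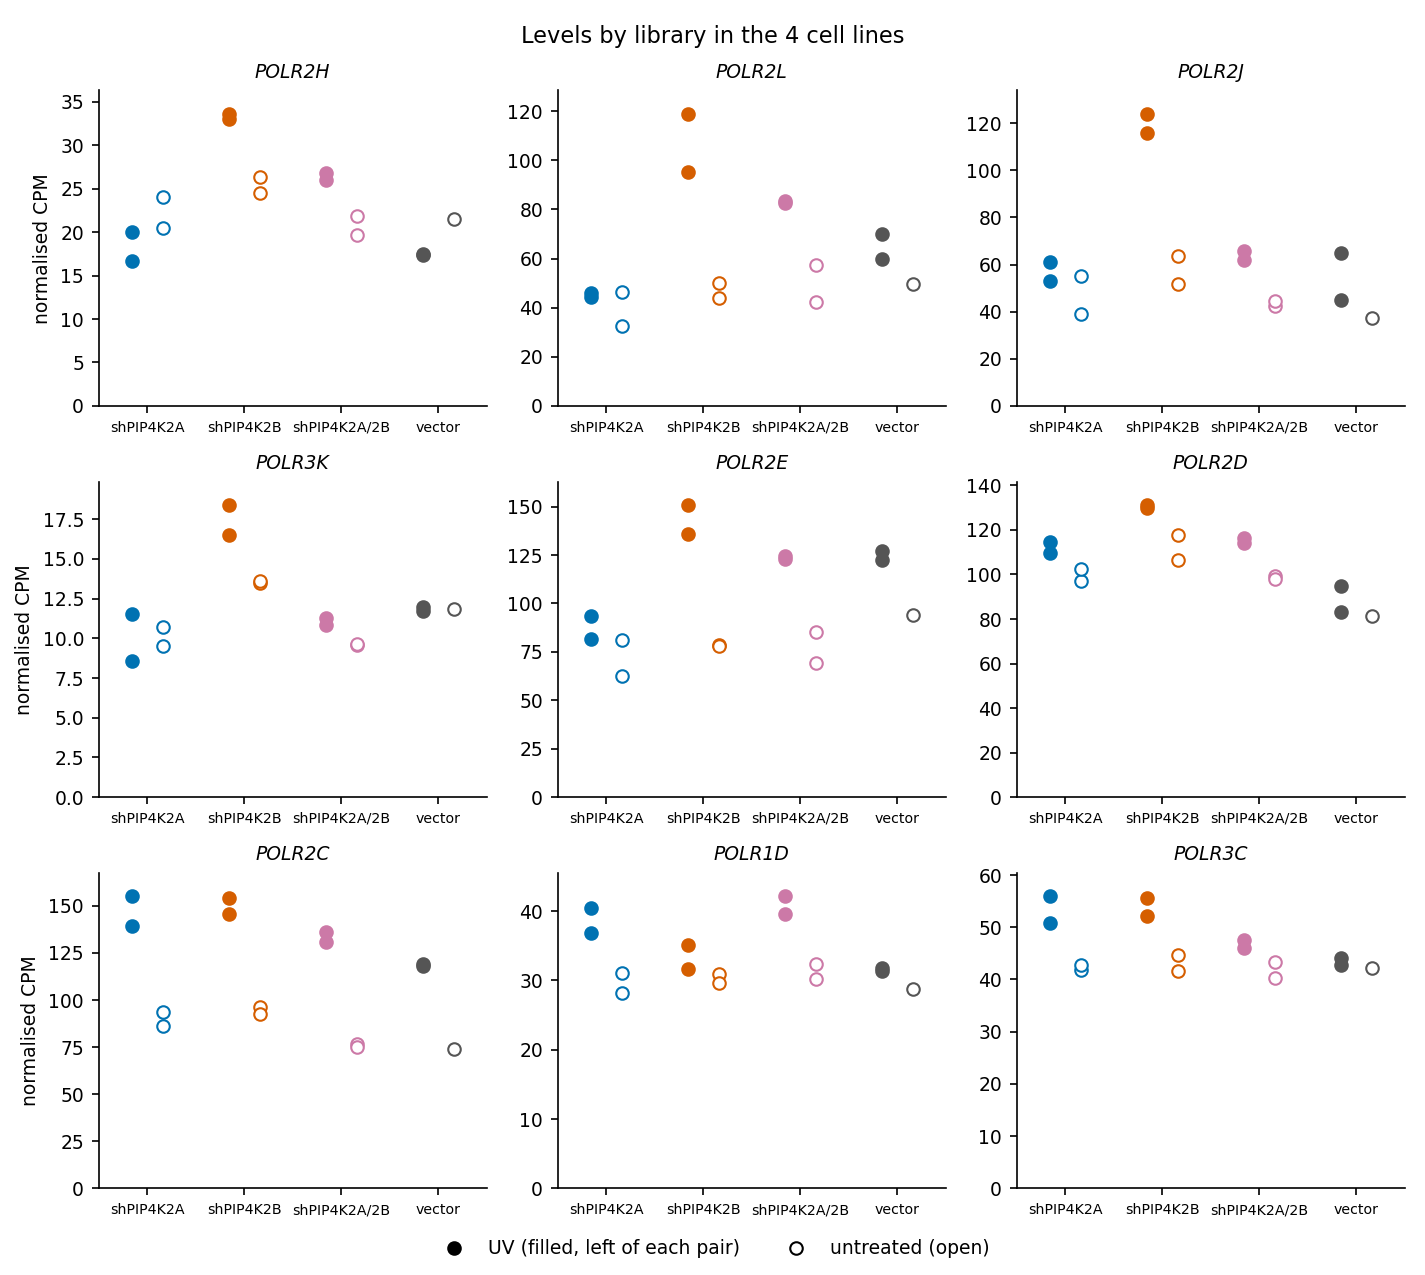
Normalised CPM (y axis, from 0) of 9 members in the 4 lines; filled points are UV libraries and open points untreated ones, 1 point per library, with UV left of untreated in each line. The UV libraries of shPIP4K2B cells are highest in POLR2H (33.1 and 33.6), POLR2L (118.9 and 95.3) and POLR2J (124.0 and 116.0).

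POLR1A changed in transcript length after UV, while its normalised CPM did not pass the test on the TMM scale (under ribosomal protein gene scaling its log2 fold change was -0.82). The tables give for each gene the mean length of its transcripts weighted by their estimated abundance. For POLR1A (chromosome 2, 86020216 to 86106155, minus strand) this length was 10422 and 9131 bases in shPIP4K2A, 9295 and 9623 in shPIP4K2B, 9815 and 10028 in shPIP4K2A/2B and 10433 and 10416 in empty-vector cells after UV. Untreated it was 7029 and 6641, 6749 and 6602, and 6399 and 7008 in the 3 knockdowns, and 6743 in empty-vector cells. All UV libraries lay above all untreated ones. Per kilobase of effective length, the level of POLR1A was lower after UV, at 21.6, 23.6 and 28.5 normalised CPM per kb (lowest, median, highest) after UV and 32.8, 35.7 and 37.9 untreated, without overlap; this per-length level was not tested. The log2 change of length was 0.51 (SE 0.06, adjusted p = 0.0105 by limma), 0.50 (SE 0.06, adjusted p = 0.0141), 0.57 (SE 0.06, adjusted p = 0.00712) and 0.63 (SE 0.08, adjusted p = 0.0215) in these lines, and 0.55 (SE 0.03, adjusted p = 0.000102) on average.

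GENCODE release 29 holds 2 protein-coding transcripts of POLR1A. POLR1A-201 has 12749 exonic bases, of which 7207 lie 3′ of the stop codon, and POLR1A-203 has 6454, of which 1095 lie there. Their starts coincide and both have 34 exons; they end at 86020216 and at 86026328, and their coding parts are 5160 and 4977 bases long. The untreated lengths thus lay near that of POLR1A-203 and the UV lengths between the 2 transcripts. No other gene of the annotation overlaps POLR1A. The tables used here hold 1 row per gene, and which transcript changed was not tested. With a term for fragment length the averaged change was 0.55 (adjusted p = 0.000161), and it was called in all 14 fits that left out 1 library; the call within empty-vector cells was lost without either of its UV libraries (adjusted p = 0.0895 and 0.0901), and that within shPIP4K2B cells without any 1 of its 4 libraries.

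**Figure D5:**
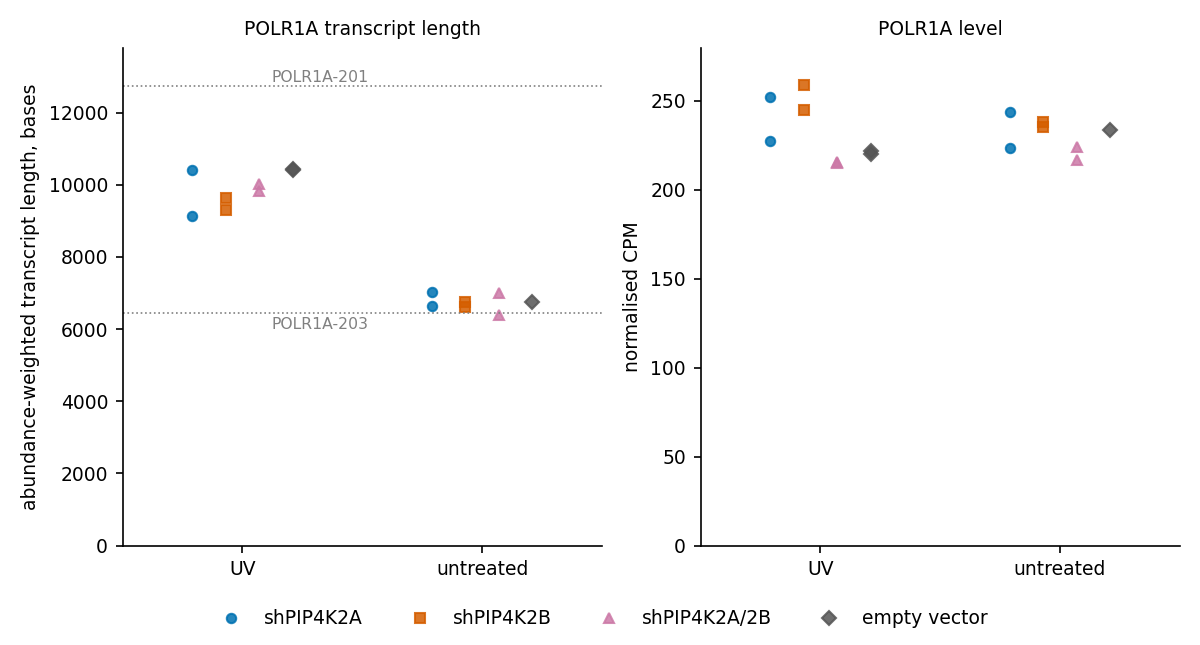
POLR1A in each library: abundance-weighted transcript length in bases (left) and normalised CPM (right), both from 0, UV left of untreated, with the line shown by the marker; dotted lines are the lengths of POLR1A-201 and POLR1A-203. The UV lengths lie between 9131 and 10433 bases and the untreated ones between 6399 and 7029, whereas normalised CPM overlap; per kilobase of effective length, levels were 21.6 to 28.5 after UV and 32.8 to 37.9 untreated and did not overlap.

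In the averaged contrast, weighted length was called in 6 members, 5 longer and 1 shorter after UV, where 14.7% of 11521 genes passed; in single lines 2, 1, 2 and 1 members were called in shPIP4K2A, shPIP4K2B, shPIP4K2A/2B and empty-vector cells, where 2.15, 1.48, 2.37 and 0.772% of genes passed. Besides POLR1A, the length of POLR3A changed by 0.19 (SE 0.05, adjusted p = 0.0443), with 5230, 6095 and 6557 bases (lowest, median, highest) after UV and 4870, 5199 and 5908 untreated. POLR2A changed by 0.08 (adjusted p = 0.0112), with 6348 to 6589 bases against 6003 to 6284, and POLR2B by 0.07 (adjusted p = 0.0331). POLR1D became shorter, by -0.11 (SE 0.01, adjusted p = 0.00204), with 870 to 901 bases after UV and 920 to 1004 untreated, and POLR2C changed by 0.05 (adjusted p = 0.0481). Beside POLR1A, only POLR2A and POLR1D had UV and untreated lengths that did not overlap. The share of all genes without such overlap in length was not counted, so this is not read as a result about the members. The averaged count was 3 without any 1 of 5 libraries: both untreated shPIP4K2B ones, untreated shPIP4K2A/2B replicate 1, untreated shPIP4K2A replicate 2 and UV shPIP4K2A/2B replicate 2. The count in shPIP4K2A cells was 7 without UV shPIP4K2A replicate 2, 0 without untreated shPIP4K2A replicate 2 and 1 without 8 other libraries.

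Genes that work with the polymerases were read in the averaged UV contrast as background to the subunits, on the TMM scale, where 29.9% of all genes were higher and 27.7% lower. Under ribosomal protein gene scaling, 1.19% of all genes were higher and 81.2% lower, and the lists' counts under that scaling are to be read against these shares. Of 12 assembly and import factors, 10 rose and none fell, with a median of 0.39: UXT rose by 0.76 (SE 0.07), RUVBL2 by 0.59 (SE 0.05) and GPN1 by 0.36 (SE 0.04). UXT and RUVBL2 belong to the chaperone machinery that assembles polymerases and GPN1 is a GTPase of their nuclear import. UXT had 30.7 to 39.9 normalised CPM after UV and 18.1 to 27.1 untreated. Under ribosomal protein gene scaling none of the 12 rose and 10 fell, with a median of -0.44 beside -0.80 for all genes.

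Of 22 general factors of polymerase II, 14 rose and 4 fell (median 0.21), and under ribosomal protein gene scaling all 22 fell (median -0.61). GTF2B, which positions the enzyme at the start site, fell by 1.41 (SE 0.07), with 4.56 to 6.48 normalised CPM after UV and 14.05 to 16.04 untreated, and GTF2E1 fell by 1.29 (SE 0.07). The elongation factor gene SUPT4H1 rose by 0.45 (SE 0.04). Of 18 factors of polymerase III, 8 rose and 4 fell (median 0.03), against 0 and 16 under ribosomal protein gene scaling. GTF3A, which binds the gene of the small ribosomal RNA made by polymerase III, rose by 0.74 (SE 0.04) and MAF1, a repressor of polymerase III, by 0.71 (SE 0.06), and GTF3C4, a subunit of the factor that binds transfer RNA genes, fell by 0.46 (SE 0.04). Of 9 factors of polymerase I, 2 rose and 3 fell (median -0.08), against 0 and 9 under ribosomal protein gene scaling. NOLC1 rose by 0.24 (SE 0.05), TCOF1 by 0.29 (SE 0.10), and the termination factor gene TTF1 fell by 0.55 (SE 0.09).

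Of 13 genes that handle stalled polymerase II, 7 rose and 2 fell (median 0.16), against 0 and 11 under ribosomal protein gene scaling (median -0.67). ERCC6, whose product CSB recognises the stalled enzyme, fell by 0.76 (SE 0.06), with 16.6 to 27.7 normalised CPM after UV and 29.2 to 39.9 untreated. ELOB and ELOC, subunits of a ubiquitin ligase that acts on the largest subunit, rose by 0.83 (SE 0.07) and 0.56 (SE 0.09). The lists are described by their counts and medians beside 0.02 for all genes, and nothing is called particular to them.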

How the data were processed

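RNA was sequenced from U2OS cells as rRNA-depleted directional libraries. The deposited tables, 1 per library, hold RSEM expected counts per gene and, per the file headers, the transcript length of the gene weighted by isoform abundance and the effective length. STAR, SAMtools and RSEM with GRCh38 are named per the submitters' processing notes; the annotation release and the strand setting of the counting are not stated in the sources used. Expected counts, rounded to whole numbers, were tested with edgeR 4.0.16 (quasi-likelihood test, TMM, filterByExpr with a minimum count of 10, Benjamini-Hochberg adjustment over 22597 genes) in R 4.3.3, with 1 term per group over 15 libraries. The common biological coefficient of variation was 11.3%. Libraries of 28.0 to 39.9 M counts gave every member at least 118 counts. Weighted lengths were tested with limma 3.58.1 on a log2 scale, for genes with a mean count of at least 100 whose length varied between libraries. Lengths from libraries with under 10 counts of the gene were set aside. Gene types, spans and transcripts came from GENCODE release 29, which holds 58420 of the 60666 identifiers. Symbols came from a separate list of gene names, which covers 60437 of them, and promoter windows from RefSeq GRCh38.p14.

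Of the 30 members, 1 is not reported here and enters only counts, medians and correlations. Values by library are given for members past the test with an averaged change of at least 0.5 in size, for those past a test between lines (up to 6 per comparison), for POLR1A, POLR2A and POLR3A and for the pair POLR3G and POLR3GL; from each pathway list the 3 with the smallest p are named. Members, lists, tests and the empty-vector library set aside were chosen with earlier results of these data known. Alternatives covered DESeq2 1.42.0, other scalings and filters, a replicate block, all 16 libraries, single libraries left out, and, chosen after seeing the data, a fragment length term, the shPIP4K2A UV libraries left out and RefSeq spans. The edgeR steps were tested on simulated data. Same-numbered libraries were not paired: the correlation of their deviations ran from -0.117 to 0.187 over 21 pairs of groups and exceeded 0.1 in 3.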

Additional observations from a re-analysis of the deposited data

How the results depend on the processing

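The untreated empty-vector group holds a single library, which limits every comparison with it, and the libraries used held 28.0 M counts or more. For the averaged UV contrast the count of members called was 21 under DESeq2, RLE size factors, a CPM filter, a fragment length term and the replicate block, 20 without a filter and 19 to 25 with 1 library left out; without untreated empty-vector replicate 2 no value exists. DESeq2 was not run for the tests among 3 lines. Over the single members' alternative values, 1244 were counted as the same, 253 lost the call, 8 gained it, 16 moved and 24 reversed. A change called in neither fit was counted as the same whatever its sign. POLR1A, for example, ran from -0.022 to 0.022 in the averaged contrast with 1 library left out. For no case below, unless fewer libraries or genes, was the cause tested. Here and above, counts of members in the alternatives stand without the share of all genes called in the same fit. The UV contrasts under ribosomal protein gene scaling are the exception. A moved count is therefore not read as particular to the members.

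With all 16 libraries, counts were 0 in shPIP4K2A, 0 in shPIP4K2B, 0 in shPIP4K2A/2B, 1 in empty-vector cells and 6 averaged for UV, 0 for shPIP4K2B against empty vector untreated, 0 for each knockdown after UV, 0 among the knockdowns in both conditions, and for length 0 in each line and 1 averaged, and POLR2B reversed to 0.0705. Ribosomal protein gene scaling gave 17 in empty-vector and 22 in shPIP4K2A cells for UV, 2 for shPIP4K2A and 1 for shPIP4K2A/2B against empty vector untreated, 14 and 7 after UV, and 0 among the untreated knockdowns. It reversed the averaged change of POLR2J (-0.21), POLR1H (-0.28), POLR1A (-0.82), POLR2E (-0.26), POLR2F (-0.15), POLR2C (-0.11), POLR1F (-0.65), POLR3G (-0.55), POLR1G (-0.75), POLR3GL (-0.30), POLR3F (-0.65), POLR1E (-0.68), POLR2D (-0.64), POLR2K (-0.0297), POLR3K (-0.68), POLR2H (-0.78), POLR2G (-0.29), POLR3D (-0.33), POLR1C (-0.71), POLR2L (-0.19), POLR2A (-0.80), POLR3C (-0.61) and POLR1D (-0.56). Leaving out both shPIP4K2A UV libraries gave 3, 5 and 2 for shPIP4K2A, shPIP4K2B and shPIP4K2A/2B against empty vector untreated, 14 for shPIP4K2B after UV and 7 among the untreated knockdowns. Without a filter there were 5 for shPIP4K2A/2B after UV, 1 for the response of shPIP4K2B minus empty vector and 4 for shPIP4K2B minus shPIP4K2A. The replicate block gave length counts of 1 in shPIP4K2A cells and 3 averaged, and the fragment length term 1 in shPIP4K2A cells; the block moved no count of level calls by over 1.5 times. With weighted in place of effective length, 8 of the 10 highest genes stayed.

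With 1 library left out, UV counts ran from 6 to 13 in shPIP4K2A, 10 to 19 in shPIP4K2B, 9 to 19 in shPIP4K2A/2B and 4 to 13 in empty-vector cells. Against empty vector they ran from 0 to 3, 0 to 6 and 0 to 2 untreated and from 0 to 12, 3 to 14 and 1 to 6 after UV, in the same order of knockdowns. Responses ran from 0 to 2 for shPIP4K2A, 0 to 0 for shPIP4K2B and 0 to 0 for shPIP4K2A/2B minus empty vector, 0 to 4 for shPIP4K2B minus shPIP4K2A, 0 to 3 for shPIP4K2A/2B minus shPIP4K2A and 0 to 0 for shPIP4K2A/2B minus shPIP4K2B. Among the knockdowns they ran from 0 to 7 untreated and 5 to 18 after UV, and for length from 0 to 7, 0 to 1, 0 to 2, 0 to 1 and, averaged, 3 to 7.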

Other observations

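The empty-vector untreated library that was set aside held 0 expected counts for POLR3K, 1 for POLR2I, 1 for POLR3B, 2 for POLR2H and at most 142, for POLR1A (111 CPM). The 30 subunit genes made up 0.0882% of its counts, against 0.177 to 0.213% in the other libraries.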
